A study of Mus musculus with 6 samples.

Results

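The comparison set imatinib-treated Ba/F3 cells carrying ETV6-PDGFRB against imatinib-treated Ba/F3 cells carrying FIP1L1-PDGFRA, the line difference that was present while both kinases were under the inhibitor. It rested on 2 of the 6 arrays of the series, 1 array for each line, and the arrays were chosen by their labels alone. The mouse line Ba/F3, labelled as pro-B, lives on IL3 unless an active kinase takes over. Cells were transfected with a pMSCV vector that held either fusion gene and were then selected for growth without IL3, and the treated cells received 100 nM imatinib (Glivec) for 4 h before RNA was extracted. The same 2 fusion lines without imatinib gave a second pair of arrays, and empty pMSCV cells kept in IL3, with and without imatinib at the same dose and time, completed the set. All cells grew in medium with 10% serum, and 5 µg of RNA entered each labelling reaction. The labels do not say whether a line is a clone or a pool, and the 2 arrays of a line are not stated to be separate cultures. No repeat array exists for a line in a given state, so the treated pair carries no p-value. The fusion lines were drugged without IL3 and the vector cells with it.

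Both fusions join a PDGF receptor kinase domain to another protein, are found in myeloid neoplasms with eosinophilia, and signal without ligand through STAT5, the RAS-ERK cascade and PI3K. Imatinib occupies the ATP pocket of both receptor kinases and stops that signalling. Ba/F3 cells are labelled as pro-B cells, yet they respond to IL3 as myeloid progenitors do and can carry transcripts of mast cells and of early erythroid cells.

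Signals are the authors' MAS5 values, a linear brightness per probe set, and each gene is given by its brightest probe set. Values under a floor of 20.1 were set to that floor before ratios were taken. A gene counted as measured where at least 1 of the 2 arrays lay above the floor, and "at least" marks a fold that is only a bound because the dimmer array lay under it. Log2 ratios are treated ETV6-PDGFRB over treated FIP1L1-PDGFRA unless stated otherwise. On the treated arrays 2 of 11 pro-B markers lay above the floor, Cd79a and Cd79b, and 8 of the 11, Pax5, Ebf1, Rag1 and Rag2 among them, were below it on every array. Most defining transcripts of the labelled cell type were thus at background. The IL3 receptor chains Csf2rb (1335 and 1580 in treated ETV6-PDGFRB and FIP1L1-PDGFRA cells) and Il3ra (65.2 and 44.4) and the progenitor factor Gata2 (772 and 645) were present in both lines.

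Of 6763 genes measured, 45 (0.665%) were at least 2-fold higher in treated ETV6-PDGFRB cells and 41 (0.606%) were at least 2-fold lower, 86 genes in all (1.27%). Of these folds 16 were lower bounds, and in 42 of the genes the brighter array had a signal of at least 100. The IL3-grown vector pair, in which 5 of 6674 genes (0.0749%) were higher with imatinib and 4 (0.0599%) lower, 9 in all (0.135%), shows how far 2 arrays of one line stood apart. The SD of the log2 ratios over genes was 0.34 in the treated pair and 0.20 in the vector pair. Scaling the arrays to the hybridization controls instead moved the median of all genes from 0.03 to -0.14 and the split from 45 higher and 41 lower to 23 and 61. At the limit itself, 23 genes lay just inside it and 26 just outside, with log2 ratios of size 0.9 to 1.1. Below, higher and lower describe the arrays as the authors scaled them.

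The treated and untreated pairs gave related pictures from 4 different arrays. Of the 45 genes higher in treated ETV6-PDGFRB cells, 19 (42.2%) were also at least 2-fold higher in the untreated pair, where 59 genes were (0.87% of those measured, so that the 19 make up 32.2% of that list). Of the 41 lower genes, 22 (53.7%) were also lower there, 43.1% of the 51 genes (0.752%) found in the untreated pair, in which 110 genes (1.62%) passed 2-fold in either direction. Counting sign alone, 78 of the 86 lay on the same side in the untreated pair, and 8 on the opposite side. Over all genes measured in both pairs, 4346 of 6588 had the same sign. Where 1 line was below the floor in both states, as for F13a1, Gstm1 and Gbe1, the sign could only agree or be 0. Over 6588 genes measured in both pairs, the log2 ratios correlated at r = 0.51 and rho = 0.42, and over 3989 genes with a signal of at least 100 at 0.63 and 0.50. These correlations are across genes, which are not independent replicates. Array pairs of the same line share their culture history.

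**Figure D1:**
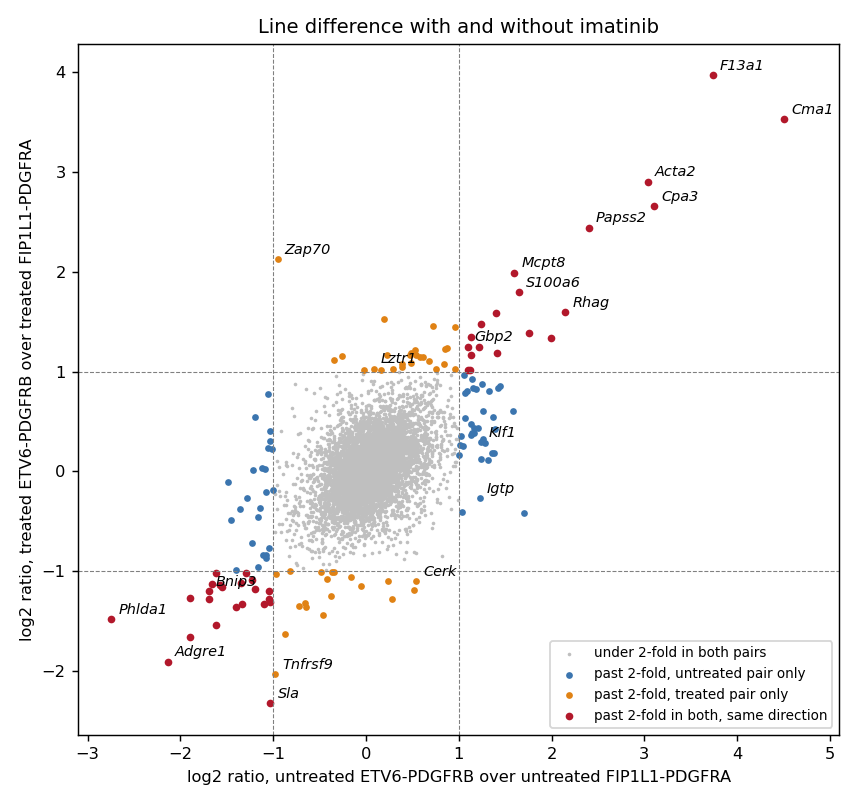
Each point is a gene. The x axis is the log2 ratio of untreated ETV6-PDGFRB over untreated FIP1L1-PDGFRA cells and the y axis the same ratio after imatinib, with dashed lines at 2-fold. The 41 red genes pass 2-fold in both pairs in the same direction, with F13a1, Cma1, Acta2, Cpa3 and Papss2 at the upper right, while Zap70 at the upper left is the gene past 2-fold whose sign turned most.

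Proteases and other products of mast cell granules formed the most extreme group on the ETV6-PDGFRB side. Cma1, the mast cell chymase, had a signal of 3615 in treated ETV6-PDGFRB cells and 313 in treated FIP1L1-PDGFRA cells, 11.5-fold apart. Its untreated signals were 2574 and 113, and the vector cells gave 216 untreated and 211 with imatinib. Both ETV6-PDGFRB arrays thus stood far above the other 4. Cpa3, carboxypeptidase A3 of mast cell granules, was at 1060.4 against 168 with imatinib, 6.31-fold higher, at 814 against 94.7 without it, and at 166 and 164 in vector cells. Mcpt8, a protease of basophils, was at 79.8 and 60.7 in treated and untreated ETV6-PDGFRB cells and below the floor on the other 4 arrays, at least 3.98-fold apart with imatinib. Mcpt4, another mast cell chymase, was at 54.9 and 33.2 in these cells and likewise below the floor elsewhere, at least 2.73-fold apart. Mcpt4 and Mcpt8 were measured only through the line in which they were high, so they could only differ in that direction.

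Of 24 mast cell, basophil and eosinophil markers on the array, 10 were measured in the treated pair and 14 were below the floor on both arrays. Of the 10, 9 were above 0 and 1 below, with a median log2 ratio of 0.82 against 0.03 for all genes, and 0.71 in the untreated pair. Without Mcpt4 and Mcpt8 the other 8 had a median of 0.59, with 7 above 0 and 1 below. The remaining 6 did not pass 2-fold. Hdc, which makes histamine, was at 44.9 against 25.1 and had been at 64.9 against 24.2 without imatinib. Siglecf, a lectin of eosinophils, was at 146 against 83.6, whereas the untreated lines had nearly equal signals of 56.6 and 55.6. Fcer1g, Gata2, Srgn and Mitf lay between -0.04 and 0.37. The receptors that define mature mast cells did not accompany the proteases, since Kit, Fcer1a and Ms4a2 were below the floor on all 6 arrays. In bulk RNA a larger share of cells with granule transcripts and more of the transcript per cell cannot be told apart.

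The mouse genome carries the chymase and granzyme genes side by side. Of 15 protein-coding genes from Cma1 to Gzmb, neighbours in the RefSeq gene order, 13 were on the array and 4 were measured in the treated pair, Cma1, Mcpt4, Mcpt8 and Gzmb, all 4 at least 2-fold higher in treated ETV6-PDGFRB cells, against 0.665% of all measured genes. For Mcpt4 and Mcpt8 this direction was fixed by the filter. Cma1 and Gzmb were above the floor on both treated arrays, but they are the ends of the run, chosen after their values were seen. The 4 of 4 was thus fixed by the choice and the filter and says nothing about the locus as a whole. Gzmb, granzyme B, had high signals everywhere, 3721 and 3793 in treated and untreated ETV6-PDGFRB cells, 1584 and 2072 in FIP1L1-PDGFRA cells, and 2592 and 2536 in vector cells. The 9 other array members, among them Ctsg, Mcpt1, Mcpt2 and granzymes C to G and N, were below the floor on both treated arrays. Cpa3 lies on another chromosome.

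Because the chymases and Cpa3 differed together, the 250 bases before their transcription starts are shown, read from RefSeq sequence of GRCm38.p6 and written in the direction of the gene. Capitals mark GATA-type motifs, searched on both strands in the form AGATAA, in the form AGATAG, in the form TGATAA and in the form TGATAG, since GATA factors are known regulators of mast cell genes. Each of the 3 promoters held 1 match.
Cma1 chr14:55944676-55944925, minus strand: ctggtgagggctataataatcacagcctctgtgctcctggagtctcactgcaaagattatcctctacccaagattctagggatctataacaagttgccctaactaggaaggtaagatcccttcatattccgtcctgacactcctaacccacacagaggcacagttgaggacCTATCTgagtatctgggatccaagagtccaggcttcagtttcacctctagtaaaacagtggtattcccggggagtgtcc
Cpa3 chr3:20242182-20242431, minus strand: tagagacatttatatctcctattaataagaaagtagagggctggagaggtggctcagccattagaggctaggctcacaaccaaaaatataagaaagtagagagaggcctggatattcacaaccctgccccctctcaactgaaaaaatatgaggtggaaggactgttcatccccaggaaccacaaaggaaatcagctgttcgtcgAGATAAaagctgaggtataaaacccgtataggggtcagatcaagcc
Mcpt4 chr14:56062311-56062560, minus strand: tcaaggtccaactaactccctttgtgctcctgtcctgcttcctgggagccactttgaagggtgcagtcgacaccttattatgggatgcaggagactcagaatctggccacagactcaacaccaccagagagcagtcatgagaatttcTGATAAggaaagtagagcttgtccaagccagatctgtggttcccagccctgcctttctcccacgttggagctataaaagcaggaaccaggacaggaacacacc
Such a match was present in 27.1% of 27025 promoters of this length and in 16.0% of the 5611 promoters of measured genes, and Mcpt8, Gzmb and F13a1 had none in the same window. A match is a description of the letters and not of binding.

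Outside the granule genes, several secreted, cytoskeletal and metabolic transcripts were higher in treated ETV6-PDGFRB cells. F13a1, the catalytic chain of coagulation factor XIII, was at 314 with and 268 without imatinib in ETV6-PDGFRB cells and at 4.73 to 8.26 in the other fusion and vector arrays, all below the floor, so the treated lines were at least 15.6-fold apart. Acta2, smooth muscle actin, was at 298 against 39.8 (7.48-fold), at 462 against 56.2 without imatinib, and at 36.5 and 41.3 in vector cells. The fibroblast markers Col1a1, Col1a2 and Dcn were below the floor on every array. None of 10 measured matrix and collagen genes passed 2-fold, with Hspg2 highest at 0.72, and Mylk, a kinase of muscle myosin, was lower at -1.09. The second probe set of Acta2 was dim, and averaging both lowered the Acta2 log2 ratio from 2.90 to 1.30.

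Papss2, which makes the sulphate donor used for proteoglycans such as those of granules, was at 198 against 36.5 (5.43-fold) with imatinib and at 106 against 12.6 without it. Its other measured probe sets gave log2 ratios of 0.49 and 2.40. S100a6, a calcium-binding protein, was at 796 against 229, with 295 in treated vector cells between them. Ramp1, a partner of calcitonin-family receptors, was at 345 against 132, and Plin3, a coat protein of lipid droplets, at 172 against 61.5. Rhag, an ammonium channel of the erythroid membrane, was at 98.5 against 32.6. The erythroid list as a whole did not lean with it, with 7 of 16 measured members above 0, 9 below and a median of -0.09. Anxa1, annexin A1, was at 341 against 143. Among these genes Papss2, S100a6, Ramp1, Plin3, Rhag and Anxa1 were each above the FIP1L1-PDGFRA value in both pairs.

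Of 31 measured members of the NRF2, metallothionein and redox list, 15 were above 0 and 16 below, with a median of -0.03. Past 2-fold were 2 (6.45%), against 1.27% of all genes. Gstm1, a glutathione transferase, was at 44.9 and Aldh3a1, an aldehyde dehydrogenase, at 45.7 in treated ETV6-PDGFRB cells, and both were below the floor in treated FIP1L1-PDGFRA and in vector cells, which gives at least 2.24-fold and at least 2.27-fold. Both were measured only through the ETV6-PDGFRB array and so could only come out higher. Uap1, which makes the sugar nucleotide UDP-GlcNAc, was at 172 against 73.5, and Serpini1, the protease inhibitor neuroserpin, at 69.0 against 22.9. The other measured probe set of Serpini1 gave a log2 ratio of 0.52, against 1.59 for the one used. Cdc42ep3, an effector of the GTPase CDC42, was at 93.1 against 40.9 with imatinib and at 53.2 against a signal below the floor without it, with a second probe set at a log2 ratio of 1.18.

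**Figure D2:**
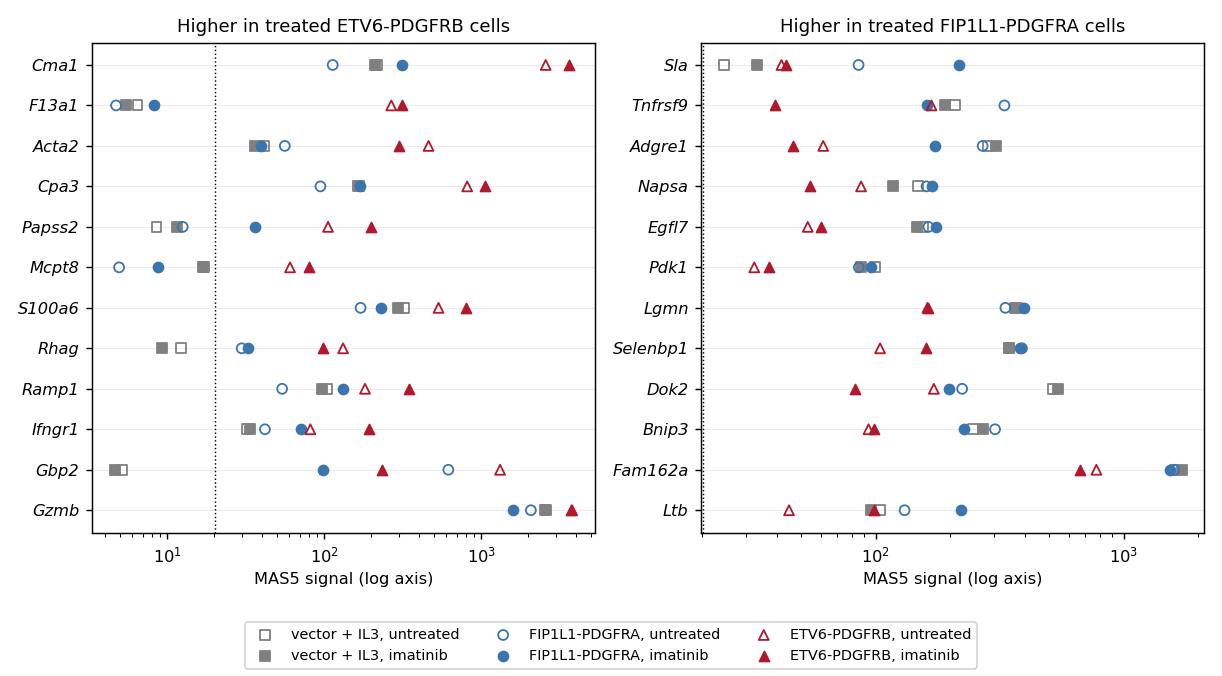
MAS5 signals on a log axis for 12 genes higher in treated ETV6-PDGFRB cells (left) and 12 higher in treated FIP1L1-PDGFRA cells (right), with 1 symbol for each of the 6 arrays and a dotted line at the floor of 20.1. For Cma1, F13a1, Acta2 and Cpa3 the 2 ETV6-PDGFRB arrays lie apart from the other 4, and for Adgre1, Egfl7, Pdk1, Selenbp1 and Bnip3 they lie below the other 4.

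Interferon-stimulated transcripts leaned in opposite directions by family. Over the 44 measured members of the whole list, 20 were above 0 and 24 below, with a median of -0.06. The split into families was made after these values were seen. The immunity-related (IRG) and guanylate-binding (GBP) GTPases, enzymes induced mainly by interferon gamma that attack vacuoles of pathogens, were above 0 for 7 of 9 measured members of 11 on the array, with a median of 0.40. In the untreated pair 10 of 10 measured members were above 0, with a median of 0.81. Past 2-fold higher were 1 of the 9 in the treated pair, against 0.665% of all genes, and 4 of the 10 in the untreated pair, against 0.87%. Gbp2 had signals of 235 and 98.8 with imatinib and 1319 and 618 without it, and its second probe set gave a log2 ratio of 1.33. Ifi47 was at 217 against 119 and Gbp2b at 148 against 85.2. Iigp1, with 45.9 against 36.7, and Igtp, with 112 against 135, had been more than 2-fold higher in untreated ETV6-PDGFRB cells (1476 against 617, and 2015 against 861).

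The antiviral and ISG15-system genes, a group of mixed functions, leaned the other way. Of 17 measured members of 22 on the array, 3 were above 0 and 14 below, with a median of -0.46, and in the untreated pair 2 of 21 were above 0 and 19 below, with a median of -0.38. Past 2-fold lower were 1 of the 17 in the treated pair, against 0.606% of all genes, and 3 of the 21 in the untreated pair, against 0.752%. Usp18, which removes ISG15 and damps the type I interferon receptor, was at 24.7 against 63.4, 2.57-fold lower, and it was the member of the family past 2-fold in the treated pair. Oas2 was at 44.1 against 80.1, Bst2 at 136 against 247 and Isg20 at 146 against 257. Irf7, the factor that amplifies type I interferon, was at 78.3 against 138 with imatinib but at nearly equal levels of 247 and 272 without it. Ifit2, at 84.2 against 49.1 and 104 against 216 untreated, and Zbp1, at 94.4 against 58.4, went against the family. The IRG and GBP median was 0.22 to 0.43 and the antiviral median -0.65 to -0.38 over 7 other ways of scaling, flooring or summarising, also chosen for these families after the values were seen.

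The list of cytokine receptor and JAK-STAT genes had 2 of 29 measured members past 2-fold (6.90%, against 1.27% of all genes), Ifngr1 and Ptpn6. Ifngr1, the ligand-binding chain of the interferon gamma receptor, was at 193 against 71.1 (2.72-fold), at 81.7 against 42.0 untreated, and at 34.0 and 32.3 in vector cells. Ifngr2, the partner chain, was at 44.0 against 26.0 with imatinib and at 42.4 against 43.9 without it. Ptpn6, the phosphatase SHP-1 that dampens cytokine receptors, was at 364 against 165, with a second probe set at a log2 ratio of 1.07. The kinases of that receptor, Jak1 and Jak2, had log2 ratios of -0.12 and 0.14. Of the 27 members under 2-fold, 14 were above 0 and 13 below, and the median of the whole list was 0.06. Stat5a and Stat5b, the STAT proteins of IL3 signalling, were at 175 against 161 and 152 against 132.

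Genes of sugar breakdown and of the oxygen-sensing response were lower in treated ETV6-PDGFRB cells. The hypoxia-inducible factor HIF1 turns on glycolytic enzymes, glucose carriers and the mitochondrial regulators Bnip3 and Pdk1, and is itself destroyed after hydroxylation by Egln1. Of 25 measured members of 36 on the array, 19 were below 0 and 6 above, and 3 (12%) were past 2-fold lower. Over all measured genes 3678 were above 0, 3085 below, and 0.606% past 2-fold lower. The list median was -0.31, and the untreated median was -0.32. Pdk1, which blocks pyruvate entry into mitochondria, was at 37.2 against 95.3 (2.56-fold lower) with imatinib and at 32.4 against 85.5 without it, with 86.8 in treated vector cells. Bnip3, a mitophagy receptor, was at 98.7 against 227 and at 93.5 against 303 untreated. Egln1 was at 86.8 against 175. The second probe sets of Pdk1 and Egln1 gave -1.14 and -1.13. Fam162a, another mitochondrial HIF target outside the list, was at 665 against 1529 and at 776 against 1598 untreated, with 1711 in treated vector cells.

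Under 2-fold, the enzymes Pgam1 (646 against 1237), Pfkl (262 against 456) and Ldha (log2 -0.52), the glucose carrier Slc2a3 (275 against 462) and the HIF-induced mitochondrial protein Higd1a (694 against 1245) were on the same side. Hif1a itself was at 292 against 301. Hk2, hexokinase 2, was the member farthest the other way at 0.57, and Ndrg1 followed at 0.38. For 17 of the 19 lower members the treated FIP1L1-PDGFRA array was nearer the treated vector array than the ETV6-PDGFRB array was. Over the 86 genes past 2-fold the same held for 39 of 45 higher and 30 of 41 lower genes. The treated vector array was above the floor for 31 of these 45 and 37 of these 41. Where it and the FIP1L1-PDGFRA array were both below the floor, as for F13a1, the latter was nearer by construction. The share over all measured genes was not taken, so these counts do not say which line departed from the vector cells.

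For the 3 list members past 2-fold, the 250 bases before the start are shown in the same way. Capitals mark the core of a hypoxia-response element, searched as ACGTG and GCGTG on both strands, and a CACGTG holds a match on each strand.
Bnip3 chr7:138909507-138909756, minus strand: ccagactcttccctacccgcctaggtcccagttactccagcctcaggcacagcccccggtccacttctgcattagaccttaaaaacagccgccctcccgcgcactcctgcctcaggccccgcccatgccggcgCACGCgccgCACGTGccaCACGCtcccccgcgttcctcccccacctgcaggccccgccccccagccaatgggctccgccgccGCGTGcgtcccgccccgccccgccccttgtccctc
Pdk1 chr2:71872974-71873223, plus strand: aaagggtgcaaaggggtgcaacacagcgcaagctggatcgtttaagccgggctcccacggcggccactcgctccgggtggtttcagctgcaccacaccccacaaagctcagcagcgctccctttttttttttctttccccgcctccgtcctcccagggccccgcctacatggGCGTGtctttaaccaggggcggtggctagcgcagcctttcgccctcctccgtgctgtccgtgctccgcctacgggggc
Egln1 chr8:124949255-124949504, minus strand: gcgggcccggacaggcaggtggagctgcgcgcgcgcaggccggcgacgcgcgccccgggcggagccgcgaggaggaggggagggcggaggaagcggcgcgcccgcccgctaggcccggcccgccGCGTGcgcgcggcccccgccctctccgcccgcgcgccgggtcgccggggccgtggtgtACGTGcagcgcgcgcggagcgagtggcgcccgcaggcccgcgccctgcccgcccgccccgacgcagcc
Bnip3 held 5 matches, Egln1 2 and Pdk1 1, and Fam162a, outside the list, held 6. A match was common, with at least 1 in 38.6% of all 27025 promoters and in 59.8% of those of measured genes, so its presence alone does not set these genes apart.

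**Figure D3:**
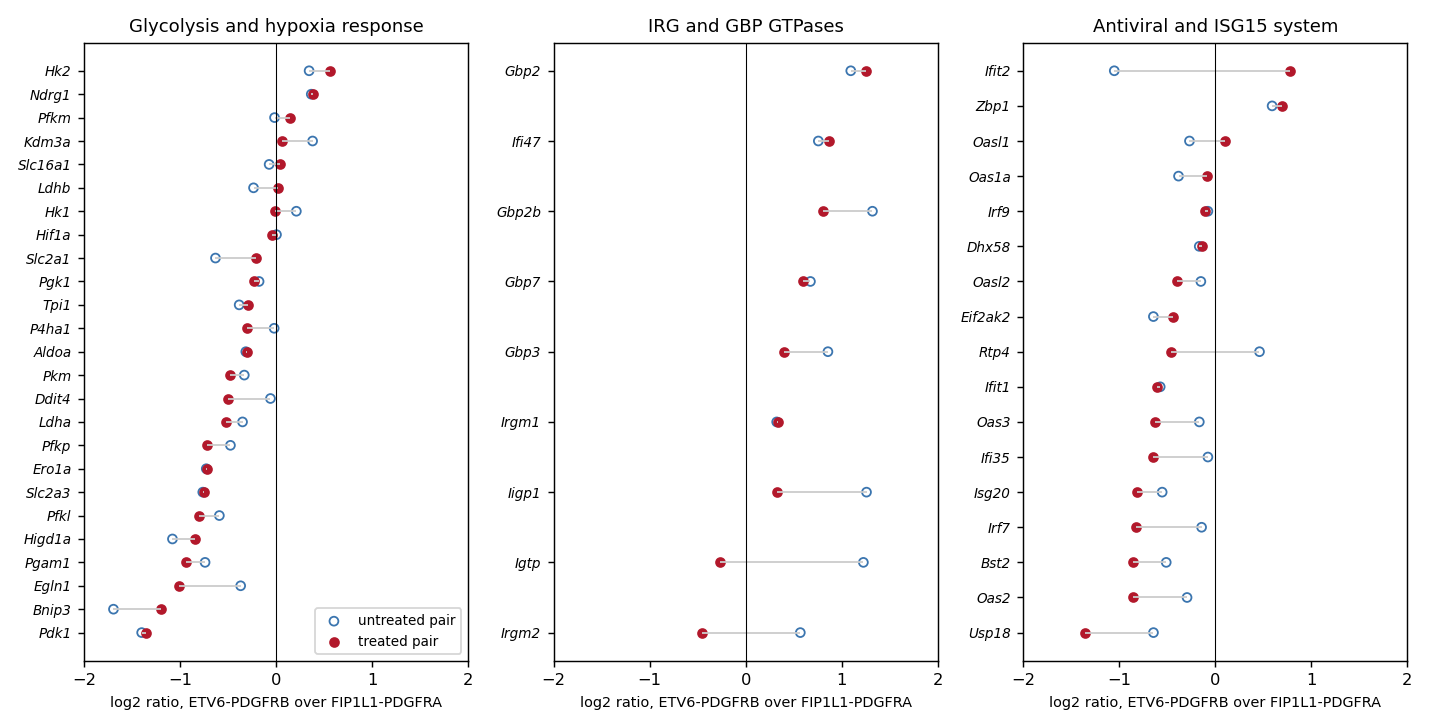
Log2 ratios of ETV6-PDGFRB over FIP1L1-PDGFRA for measured members of 3 groups, with filled points for the treated pair and open points for the untreated pair. In the treated pair 19 of 25 glycolysis and hypoxia-response genes and 14 of 17 antiviral genes lie below 0, and 7 of 9 IRG and GBP genes lie above it.

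Other genes lower in treated ETV6-PDGFRB than in treated FIP1L1-PDGFRA cells had varied roles. Sla, the SRC-like adaptor that lowers antigen receptor levels, was at 43.3 in treated ETV6-PDGFRB and 217 in treated FIP1L1-PDGFRA cells (5.01-fold), at 41.7 and 85.2 without imatinib, and at 33.1 and 24.5 in vector cells. The treated FIP1L1-PDGFRA array was the high one of the 6. Its second probe set gave -0.92. Tnfrsf9, the costimulatory receptor 4-1BB, was at 39.2 against 160.2, 4.09-fold lower, and at 168 against 330.2 untreated, with a second probe set at -2.32. Dok2, an adaptor that restrains RAS signalling, was at 82.6 against 197, at 171 against 223 untreated, and at 545 in treated vector cells. Ltb, lymphotoxin beta, was at 98.8 against 221 and was 2.92-fold lower in the untreated pair.

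Adgre1, the surface protein F4/80 of macrophages, was at 46.2 against 174 with imatinib, at 61.4 against 269.8 without it, and at 305 and 284 in vector cells, so that both ETV6-PDGFRB arrays were low. Of 7 measured members of the myeloid list 3 were above 0 and 4 below, with a median of -0.25, and Adgre1 alone passed 2-fold. Fcgr3, an Fc receptor, was at 513 against 755 (log2 -0.56), Prtn3, proteinase 3, had a bound of -0.77 and Tlr4 one of -0.25. Csf1r, the receptor for macrophage colony-stimulating factor, was at 34.0 against 32.7, and Cd14 and Lyz2 were below the floor on all 6 arrays. Whether cells of another type took part was not tested. Lgmn, the lysosomal protease legumain, was at 162 against 394 and Ctss, cathepsin S, at 17.2 against 49.7 (at least 2.47-fold). The lysosome list had 18 of 30 measured members above 0, 12 below and a median of 0.05. Napsa, an aspartic protease, was at 54.5 against 169, Egfl7, a secreted protein of vessels, at 60.1 against 174, and Selenbp1, a selenium-binding protein, at 159 against 382. The 2 other measured probe sets of Egfl7 gave log2 ratios of -0.90 and -0.65, against -1.54 for the one used. Tbxas1, thromboxane synthase, was at 25.0 against 56.6. Rps27 was at 43.5 against 138, but its single probe set also stood apart on the 2 vector arrays, at 69.7 untreated and 159 with imatinib.

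Phlda1, a growth-factor-induced regulator of cell survival, was the gene lowest in the untreated pair among those past 2-fold in both, at 24.9 against 167, and with imatinib it was at 19.9, just under the floor, against 56.2, at least 2.80-fold lower. Ifi27l2a, an interferon-induced mitochondrial protein, was at 179.7 against 395, and Fbxw4, part of a ubiquitin ligase, at 111 against 242. Gbe1, the glycogen branching enzyme, was below the floor in both ETV6-PDGFRB arrays and at 50.4 and 50.6 in FIP1L1-PDGFRA cells, at least 2.51-fold apart in the treated pair.

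A set of genes differed with imatinib while their untreated signals were close, and the difference between the pairs was not tested. Among genes with a signal of at least 100 and nearly equal untreated signals (log2 between -0.32 and 0.32), Lztr1, an adaptor that targets RAS proteins for breakdown, was farthest on the ETV6-PDGFRB side at 260 against 127, with 125 and 118 untreated. The second probe set of Lztr1 gave a log2 ratio of 0.55, against 1.03 for the one used. Tob1, an antiproliferative protein, was at 228 against 125, and Lamp2, a lysosomal membrane protein, at 671 against 381. Pmf1, Pigq and AI413582 had log2 ratios of 0.88, 0.85 and 0.81. On the other side Cbfa2t3, a corepressor of haematopoietic cells, was at 161 against 335, and its 3 other probe sets were all below 0, 2 of them past 2-fold. Sema4d was at 232 against 392, Adgrg1 at 146 against 249 and Pstpip2 at 75.7 against 126. Trgv4, a T cell receptor gamma segment, was at 78.3 against 168 and had been at 573 against 484, so that the 2 lines differed in how far it was lower with the drug. Averaging probe sets moved Trgv4 to -0.16, Sema4d from -0.76 to 0.44, Lamp2 to 0.55, and Pigq and Pmf1 to 0.35. Zap70, a T cell kinase that differed in the opposite direction without the drug, was at 87.8 in treated ETV6-PDGFRB cells and below the floor, at 14.5, in treated FIP1L1-PDGFRA cells, while the untreated signals were 25.1 and 48.7. The other 5 T and NK markers matched were below the floor on all 6 arrays.

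Other differences of the untreated lines were nearly absent with imatinib. Of the 59 genes higher and 51 lower past 2-fold in the untreated pair, 10 higher and 10 lower had treated log2 ratios between -0.32 and 0.32. The SD of the treated ratios over all genes was 0.34, and the share of all measured genes inside this band was not taken. The counts therefore do not set these genes apart. Cxcr4, the receptor for the chemokine CXCL12, was 2.60-fold higher in untreated ETV6-PDGFRB cells (360 against 138), and with imatinib it was at 826 against 725. Klf1, the erythroid Kruppel-like factor, was at 313 against 132 and then at 943 against 770.0, Lmo4 at 229 against 93.9 and then at 410.1 against 336, and Idh1 at 111 against 47.3 and then at 178 against 164. These genes had higher signals with imatinib in both lines. In the other direction Bhlhe40, a circadian repressor, went from 132 against 320.4 to 100.0 against 120.3. Cish, a STAT5-induced inhibitor of cytokine receptors, was at 284 against 552 without imatinib and at 56.4 against 62.2 with it, below the 297 of treated vector cells.

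The readouts of kinase signalling given next were less than 2-fold apart between the treated lines where measured. Pim1, at a log2 ratio of -0.07, was the one within 0.32 of 0. Id1, Myc, Dusp6 and Ccng2 had log2 ratios of -0.33, 0.36, -0.39 and 0.49. Pim1, a STAT5-induced kinase, was at 75.4 against 79.1 and 314 in treated vector cells. Id1, an inhibitor of differentiation factors, was at 50.4 against 63.5, and Socs1, the STAT-induced brake on JAK kinases, was below the floor in both. Myc was at 232 against 179.8 and Dusp6, an ERK phosphatase induced by ERK itself, at 73.9 against 97.0. Ccng2, a cyclin repressed by PI3K signalling, was at 477 against 339 and 55.6 in treated vector cells. Of the fusion parts, the mouse Pdgfra and Pdgfrb probe sets were below the floor on all 6 arrays, Etv6 was at 23.8 against 44.5 and Fip1l1 at 143 against 127, so the fusion transcripts themselves were not seen by these probe sets.

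In all, 36 gene lists were described. Most of their medians were close to the 0.03 of all genes, of which 3678 lay above 0 and 3085 below. The G2/M list had 33 of 40 members above 0 with a median of 0.18, and the sterol and fatty acid list 24 of 33 with a median of 0.08. Under hybridization-control scaling both medians changed sign, to -0.01 and -0.10, as did that of housekeeping genes, from 0.08 to -0.10. Of MYC targets and ribosome biogenesis genes 46 of 65 were below 0, with a median of -0.09. Of ATF4 and amino acid genes, which answer amino acid shortage, 22 of 30 were below 0 with a median of -0.23, against -0.06 in the untreated pair. Trib3 was at 34.9 against 61.2, Ddit3 at 83.2 against 129, and Atf4 itself at 311 against 453. None of these 5 lists had a member past 2-fold. The TNF superfamily, with Tnfrsf9 and Ltb, had 2 of 13 (15.4%) lower past 2-fold, against 0.606% of all genes, and a median of -0.01.

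**Figure D4:**
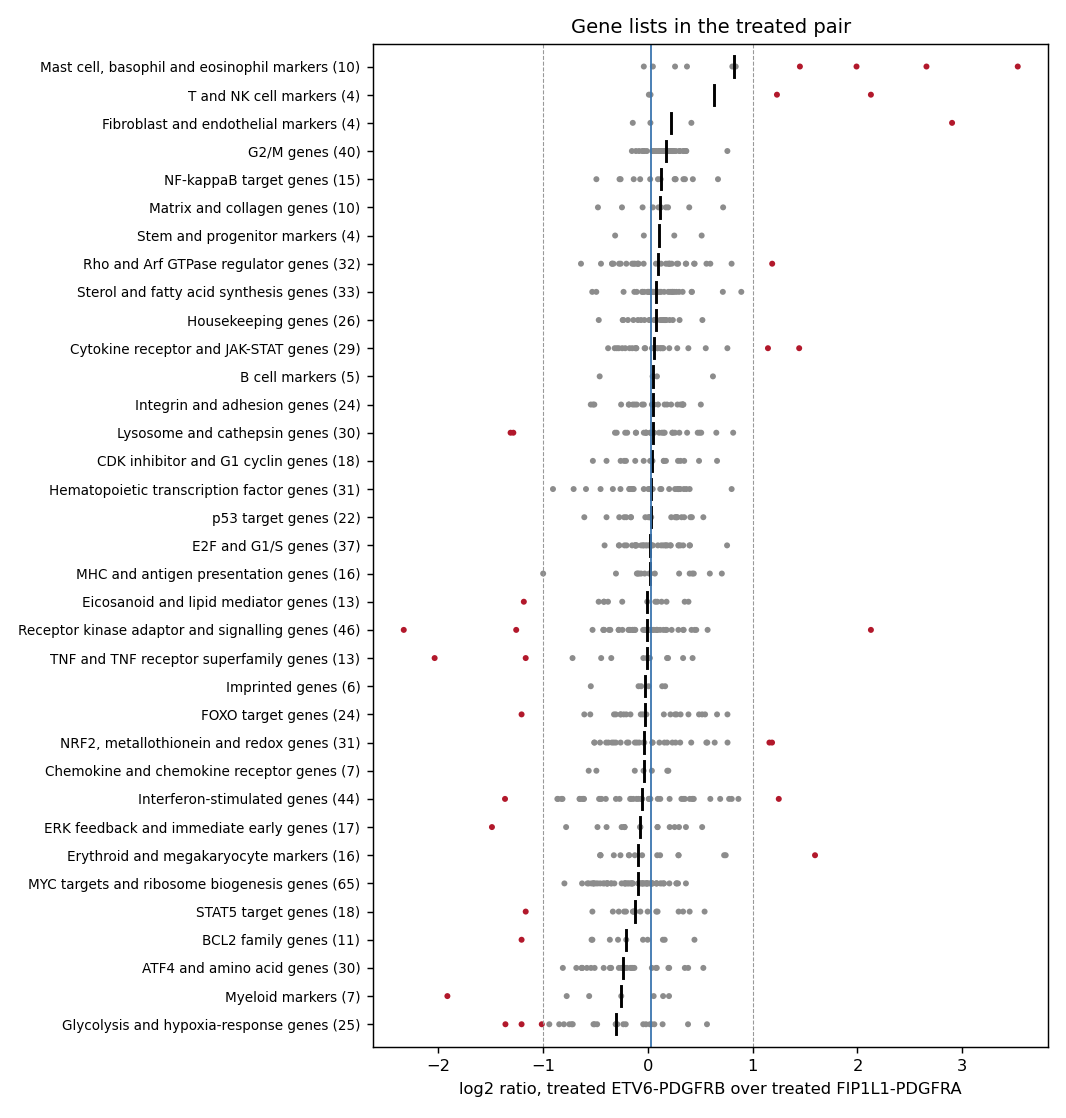
Log2 ratios of the treated pair for measured members of each list with at least 4 of them, whose number stands in brackets. Points in red are past 2-fold, black bars are list medians and the blue line is the median of all genes, 0.03. With the floor and scaling shown, the mast cell, basophil and eosinophil list has the highest median, 0.82, and the glycolysis and hypoxia-response list the lowest, -0.31. Both ranks depend on the setting. Over the other settings the mast cell median ran from 0.37 to 0.83 and the T and NK median from 0.027 to 1.098. The glycolysis and hypoxia-response median ran from -0.48 to -0.29 and the myeloid median from -0.56 to -0.13.

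The line difference was also estimated over both states with limma, fitted on the 4 fusion arrays with imatinib as a second term and 1 residual degree of freedom. Its spread is the difference in drug response between the lines and not that between repeat cultures. Of 6712 genes tested, 23 (0.343%) were higher in ETV6-PDGFRB cells and 22 (0.328%) lower, 45 in all (0.67%), at a limma adjusted p under 0.05, and 796 and 469 had an unadjusted p under 0.05. Over 9 other settings the counts ran from 3 to 165 higher and from 0 to 127 lower, so single calls depend on the setting. Cma1 (log2 4.02 ± 0.24 SE, limma adjusted p = 0.00705) and Cpa3 (2.88 ± 0.15, limma adjusted p = 0.00459) were called in all 10 settings, with highest adjusted p-values of 0.0486 and 0.0432. F13a1 (limma adjusted p = 0.00147) was called in the 9 settings that tested it. Its FIP1L1-PDGFRA values were set to the floor on both arrays, which makes its p too small. Adgre1 (-2.02 ± 0.13, limma adjusted p = 0.00846) and Acta2 (limma adjusted p = 0.00236) were called in 9 of 10, with highest adjusted p-values of 0.0526 and 0.314. Pdk1, Bnip3 and Fam162a were called in 7 of 10, while Sla and Tnfrsf9, the lowest ratios of the treated pair, had limma adjusted p = 0.0954 and 0.0866.

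A check within the arrays used the probe sets that had not been chosen. Of the 86 genes past 2-fold, 24 had another measured probe set. In 22 of them all others had the same sign, and in 13 at least 1 other passed 2-fold as well. Rbmx, an RNA-binding protein, was higher by 1.34 on its brightest probe set and had -0.18 on the other. Markers of further cell types that could be present were not raised together on either array. The 4 fibroblast markers were below the floor, and the 4 macrophage markers summed to 92.4 in treated ETV6-PDGFRB and 220 in treated FIP1L1-PDGFRA cells, of which Adgre1 gave 46.2 and 174. Their part in the differences was not tested.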

How the data were processed

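Total RNA of each of the 6 Ba/F3 samples was hybridised to 1 Affymetrix mouse array. The authors deposited a linear intensity for each probe set on each array. The submitters' processing notes name GCOS 1.4.0 and MAS5. Every array had been scaled to 1 trimmed mean of 100.0. Detection calls, background settings and a genome build are not given in the sources used here. Arrays limit precision by their number, 1 for each line and state.

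Of 22690 probe sets, 20380 had 1 gene symbol in the platform annotation and were no control, 691 had several and 1606 none. They gave 12393 genes, each taken at its probe set of highest mean log2 signal. The floor of 20.1 was the median of the arrays' 50th percentiles. Genes were counted past 2-fold with no test. limma 3.58.1 (R 4.3.3), with Benjamini-Hochberg adjustment, tested genes above the floor on at least 2 of the 4 fusion arrays. Its p-values do not measure the spread between repeat cultures, and values at the floor add no spread. On simulated data for this line difference (6712 genes, 200 changed), changes of log2 1 were recovered for 91% of genes and those of log2 2 for 100%. Of the calls 8.61% were false, and data without a change gave 0 calls. The simulated noise was normal, drawn from the fitted variance prior, and no value was set to the floor. These shares describe that setting and not the power on these arrays. Python 3.11.15 with pandas 2.3.3 did the rest.

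The gene lists and members were chosen with earlier results of these data known. Of 1475 list entries 1285 matched a gene. Genes named in the text are the 15 highest and 15 lowest treated ratios with a signal of at least 100, the 10 highest and 10 lowest also past 2-fold untreated, the 6 in each direction with close untreated or close treated signals, list members past 2-fold (up to 4 a direction), fixed kinase readouts, and the 6 smallest limma p-values a direction. List members under 2-fold, the interferon families and the granule protease neighbours were named after their values were seen. Promoters came from RefSeq sequence of GRCm38.p6 and neighbour relations from its gene table.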

Additional observations from a re-analysis of the deposited data

Results flagged for a closer look

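In 8 of the genes named here or past 2-fold, the line difference turned its sign between the states, with the treated and the untreated log2 ratio on opposite sides of 0 and each of a size above 0.32. Ifit2, Id2 and Socs3 are among them only because the text names them, which was done after their values were seen. By sign alone, 4346 of 6588 genes measured in both pairs agreed. The share of all genes that meet the stricter rule was not taken, so the 8 is a list and not a rate. The values are the treated minus the untreated log2 ratio, and the difference was not tested in any of them. Zap70, a T cell kinase, moved by 3.08, from -0.95 untreated to at least 2.13 with imatinib, and this is a bound because the treated FIP1L1-PDGFRA signal was below the floor. Ifit2, an antiviral protein, moved by 1.83, from -1.05 to 0.78, and Clec2d, a lectin that binds an NK cell receptor, by 1.46, with treated signals of 72.9 and 33.6 in ETV6-PDGFRB and FIP1L1-PDGFRA cells. The STAT5 targets Socs3 and Id2 moved by 1.74 and 1.44, the first again a bound. In the other direction Ppp1r37 moved by -1.71, where the treated ETV6-PDGFRB signal of 17.98 was below the floor, and Cerk, ceramide kinase, by -1.64, with treated signals of 24.4 and 52.3. Dusp6, the ERK phosphatase, moved by -0.82, with untreated signals of 373 and 278 and treated signals of 73.9 and 97.0.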

How the results depend on the processing

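Genes higher and lower in the treated pair numbered 111 and 72 when the 40th percentile served as floor, 27 and 24 when the 60th did, 26 and 18 with a pseudocount of 20 and no floor, 295 and 198 at a fold limit of 1.5 and 10 and 5 at 3, and 23 higher under hybridization-control scaling. Genes past the limit in both states numbered 32 higher (40th percentile), 12 lower (60th), 10 lower (pseudocount), 12 higher (hybridization controls), 98 and 61 (fold 1.5) and 8 and 2 (fold 3). The limma calls higher and lower numbered 45 and 34 with the vector pair in the fit, 5 and 0 with the 40th percentile floor, 111 and 82 with the 60th percentile one, 165 and 127 with the pseudocount, 6 and 3 with median scaling, 3 and 1 with the mean of probe sets, and 14 higher with hybridization-control scaling. At the 40th percentile 445 lower genes had an unadjusted p under 0.05.

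The mast cell list median was 0.37 at the 60th percentile and 0.60 with the pseudocount. The T and NK median was 1.05 at the 60th percentile, 0.91 with the pseudocount, 1.098 with quantile normalization, 1.06 with hybridization controls and 0.027 with the mean of probe sets. The TNF median was -0.24 with the pseudocount and -0.30 with hybridization controls, the chemokine median 0.19 at the 40th percentile and -0.30 with hybridization controls, the fibroblast median 0.026 at the 40th percentile, and the eicosanoid and myeloid medians -0.24 and -0.56 with the mean of probe sets. The other list medians moved by less than the limit set for them. Of 568 values of named genes under these alternatives, 77 moved by more than the SD of the vector pair and 0 genes past 2-fold turned sign, and 309 of 345 values of genes past 2-fold were still past it. The cause of these movements was not tested.

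Low signals limit the comparison, since 5630 of 12393 genes were below the floor on both treated arrays and 16 of 86 folds were bounds. With 1 array for each line and state, an array's own deviation cannot be told apart from the line. No paired analysis was possible because the labels carry no replicate numbers and each group has 1 array. The limma fit sets the lines against each other within each treatment state.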

Other observations

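In the RefSeq gene order, medians of the treated log2 ratio over 15 neighbouring measured genes ran from -0.32 to 0.32 in 6302 windows, and correlated with the untreated medians at r = 0.53 (windows overlap, so this is a description). The highest window, from Gbp7 to Ctbs, held 4 guanylate-binding protein genes and Lmo4, with 14 of 15 genes above 0 (13 untreated). The next, from Psme1 to Gzmb, ended in the granule protease genes, with 10 of 15 above 0 (12 untreated). The lowest ran from Nudt21 to Adgrg1, with 2 of 15 above 0 and a median of -0.32, against 6 of 15 and -0.14 in the untreated pair.

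Probe sets with no single gene name numbered 2246 without controls. Of these 921 were measured in the treated pair, 4 were at least 2-fold higher in ETV6-PDGFRB cells and 5 lower. Of the 6763 named genes 0.665% were higher and 0.606% lower. Of 21 STAT5 targets measured in the untreated pair, 4 were at least 2-fold lower in ETV6-PDGFRB cells, against 0.752% of all genes. With imatinib 1 of 18 was (5.56%), against 0.606% of all genes. Of these 18, 6 were above 0 and 12 below, with a median of -0.125, against -0.166 untreated. The list as a whole thus leaned the same way in both states. The 2 targets given next did not, and they were picked after their values were seen. Id2, an inhibitor of differentiation factors, was at 62.6 against 129 untreated and at 72.3 against 54.8 treated, and Socs3, a brake on JAK-STAT signalling, at 32.6 against 74.9 and then at 29.2 against 16.9, below the floor. Podxl, a sialomucin of the cell surface, was just past the limit at 58.2 against 117, and its second probe set gave -0.15.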
